A study of Homo sapiens with 8 samples.

Results

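The response of long non-coding RNAs (lncRNAs) to JQ1 was compared between HepG2 and LM3 cells, as the change in LM3 minus the change in HepG2. The tables of both lines were joined by locus, and 5035 of 15469 loci with values (32.5%) were kept, those with a mean of at least 0.5 FPKM (fragments per kilobase, scaled to the size of the library) over the 4 libraries of each line. Another 871 loci passed this limit in HepG2 alone and 1439 in LM3 alone, and their responses were not compared. At the limit, 10 loci with a mean of 0.5 FPKM in their lower table were kept and 9 with 0.4975 FPKM were not. Of the loci kept, 1651 had an Ensembl ID and 3384 only a locus name given by the authors (LXLOC). Each line had 2 libraries treated with vehicle (DMSO) and 2 treated with JQ1, 8 libraries in 4 groups. The labels describe HepG2 and LM3 as hepatocellular carcinoma cell lines, so each side of the comparison is a single line. The labels used here give no dose or duration for JQ1, and none says that replicates were separate cultures. The p-values therefore measure a spread between libraries that may be technical only.

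JQ1 is a small molecule that inhibits bromodomains, the protein modules that bind acetylated chromatin. Super-enhancers are dense clusters of enhancers with highly acetylated chromatin, beside genes that a cell type transcribes strongly. LncRNAs are often transcribed from such enhancers, or from a promoter shared with a coding gene, and their levels can then move with the transcription of their neighbourhood.

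Over the loci tested, Pearson's r of log2(FPKM + 0.5) was 0.967 to 0.982 between replicates and 0.912 to 0.926 between vehicle and JQ1 libraries of a line. No library stood apart from its replicate. Loci of ribosomal DNA and the mitochondrial genome held 15.3% to 15.9% of summed FPKM with vehicle and 17.1% to 18.1% with JQ1 in HepG2, and 18.9% to 19.6% and 21.2% to 22.8% in LM3. Rescaled without these loci, 1027 loci were called in the same direction in both lines (966 as deposited). The tables hold lncRNAs, so coding liver markers could not be read. Of 18 liver-lineage lncRNAs, 13 had values. H19 lay between 2038 and 2249 FPKM in HepG2 and between 309.7 and 348.1 FPKM in LM3. Without it the list summed to 9.66 and 9.88 FPKM with vehicle and 2.88 and 3.12 FPKM with JQ1 in HepG2. In LM3 the sums were 2.71 and 3.03 FPKM and then 1.66 and 1.55 FPKM. HNF4A-AS1 was at or below 0.04 FPKM in every HepG2 library and listed at 0 in all LM3 libraries. CYP4A22-AS1 stood at 0.46 and 0.44 FPKM with vehicle in LM3 and at 0.13 and 0.05 FPKM in HepG2. Other members were higher in HepG2 with vehicle. CPS1-IT1 stood at 6.84 and 6.79 FPKM there against 1.34 and 1.41 FPKM in LM3. For LINC01485 the values were 0.98 and 0.94 against 0.04 and 0.05 FPKM, and for LINC00261 0.48 and 0.64 against 0 and 0.06 FPKM. Of 18 lncRNAs of other cell types, 13 had values. With vehicle they summed to 10.54 and 10.91 FPKM in HepG2, of which FENDRR, described below, held 8.29 and 9.14 FPKM. In LM3 the vehicle sums were 6.43 and 6.94 FPKM, with FENDRR at 3.35 and 3.44 FPKM. With JQ1 the sums were 4.24 and 4.71 FPKM in HepG2 and 3.37 and 3.57 FPKM in LM3.

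Most responses went the same way in both lines. Of the 5035 loci, 1366 (27.1%) changed in HepG2, 651 upward (12.9%) and 715 downward (14.2%), and 1512 (30.0%) changed in LM3, 601 upward (11.9%) and 911 downward (18.1%) (limma, adjusted p under 0.05). The rule called 413 loci (8.2%) as rising in both lines and 553 (11%) as falling in both. These 966 loci (19.2%) were 70.7% of the HepG2 calls and 63.9% of the LM3 calls. The calls of both lines used 1 estimate of spread per locus, so they are not independent of each other. In separate fits by line, 699 loci were called in the same direction, 59.5% of the HepG2 calls and 65.45% of the LM3 calls. Only 5 loci (0.0993%) were called in opposite directions. The difference between the responses was called at 11 loci (0.218%), of which 1 (0.0199%) had the higher change in LM3 and 10 (0.199%) the lower.

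Responses of at least 2-fold were mostly called in both lines. Of 184 loci (3.65%) called with a change of at least 2-fold in HepG2, 165 (89.7%) were called in the same direction in LM3. Of 235 such loci (4.67%) in LM3, 204 (86.8%) were called in the same direction in HepG2. A change of at least 2-fold in both lines was found at 112 loci, 46 of which rose and 66 fell. Across all 5035 loci, the sign was the same at 3856 (76.6%), and the responses had a Pearson r of 0.77 and a Spearman rho of 0.73. These coefficients are over loci, which are not independent replicates. The lines share no library, but 1286 of the loci overlapped another on the same strand and may share reads; r was 0.758 without them.

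Loci called in 1 line alone were mostly not shown to differ. In HepG2 alone 395 loci were called, of which 363 (91.9%) had the same sign in LM3. In LM3 alone 541 were called, of which 489 (90.4%) had the same sign in HepG2. The test of the difference itself was passed at 2 of these loci, both called in LM3, and at an unadjusted p under 0.05 by 108 of those called in HepG2 alone and 178 of those called in LM3 alone. Over all loci that count was 604 of 5035 (12.0%). The calls in 1 line and the difference come from the same libraries, so these counts are not independent of how the loci were selected. The median standard error of a difference was 0.17 on the log2(FPKM + 0.5) scale. Among loci that rose in both lines, the 95% interval of the difference lay within 2-fold at 381 of 413 (92.3%), and among those that fell, at 514 of 553 (93.0%). It lay within 1.5-fold at 279 and 339 of them. Median changes were 0.63 in HepG2 and 0.60 in LM3 for these rises and -0.67 and -0.72 for the falls. The 2-fold bound was therefore larger than the median response. The interval also lay within 2-fold at 83.7% of loci called in 1 line without a called difference. Among loci called in neither line the share was 76.7%.

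**Figure D1:**
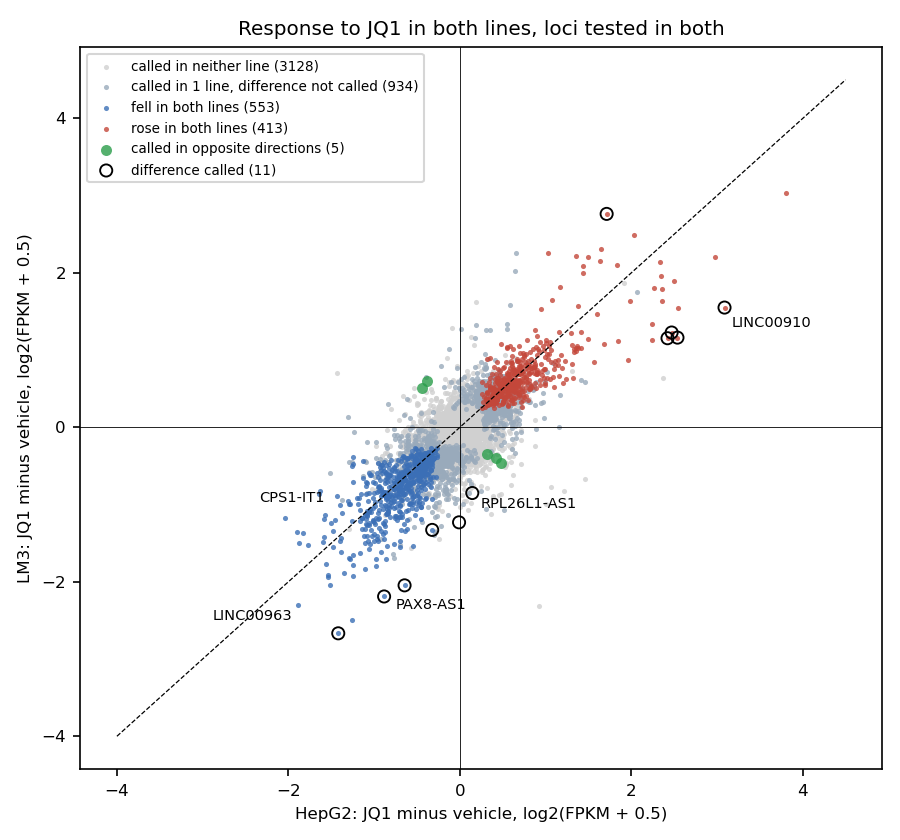
Change with JQ1 (JQ1 minus vehicle, log2(FPKM + 0.5)) in HepG2 on the horizontal and in LM3 on the vertical axis. Each point is 1 of 5035 loci, coloured by its calls, and the dashed line marks equal changes. LXLOC_034140 and RPL26L1-AS1, called in LM3 alone with the difference called, have no colour and show only as open circles. The 966 loci called in the same direction lie in the upper right and lower left, and the 11 circled loci, whose difference was called and of which 9 are among the 966, lie off the dashed line.

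The balance of rises and falls depended on how libraries were scaled. As deposited, 39.75% of LM3 calls were rises, against 55.45% with libraries centred on their medians, 56.48% after quantile normalization within tables and 48.56% after rescaling without ribosomal and mitochondrial loci. For HepG2 calls the shares in the same order were 47.66%, 52.3%, 52.65% and 41%. Of the loci called in the same direction, 42.75% rose as deposited, 53.56% after centring, 54.15% after quantile normalization and 43.23% after rescaling. The median change over all loci was 0.01 in HepG2 and -0.07 in LM3. The direction of the difference moved too: 199 loci (3.95%) were higher and 405 (8.04%) lower in LM3 at an unadjusted p under 0.05 as deposited, and 320 were higher and 287 lower after centring.

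The loci with the largest shared rises clustered in few places of the genome. Ranked by the smaller of their changes, the top 5, chosen after their values were seen, were LXLOC_024665 on chromosome 17, AP000692.2 on chromosome 21 and 3 loci within 100 kb on chromosome 6. LXLOC_024665 (chr17:43324331-43361361, minus strand, GRCh38) stood at 4.16 and 3.53 FPKM with vehicle and at 58.81 and 61.33 FPKM with JQ1 in HepG2, and at 3.35 and 3.26 FPKM and then 32.14 and 29.16 FPKM in LM3. AP000692.2, antisense to MORC3, which encodes a zinc-finger ATPase of nuclear bodies, rose from 0.25 and 0.09 to 4.41 and 5.11 FPKM in HepG2 and from 0.24 and 0.24 to 3.11 and 2.75 FPKM in LM3. All JQ1 libraries of these loci lay far above all vehicle libraries, in both lines.

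The 3 loci on chromosome 6 lay in a cluster of histone genes. LXLOC_047956 rose from 0.70 and 0.72 to 5.38 and 5.95 FPKM in HepG2 and from 0.17 and 0.29 to 2.67 and 2.05 FPKM in LM3. AL021807.1 rose from 1.37 and 1.14 to 8.02 and 8.66 FPKM in HepG2 and from 0.75 and 0.40 to 3.54 and 4.94 FPKM in LM3. LXLOC_047960 rose from 2.69 and 1.74 to 10.73 and 10.21 FPKM in HepG2 and from 0.47 and 0.47 to 4.79 and 5.16 FPKM in LM3. GENCODE lists 5 coding genes in chr6:27048126-27123883 and the 50 kb on either side, and all 5 encode core histones (HIST1H2BJ, HIST1H2AG, HIST1H4I, HIST1H2BK and HIST1H2AH). The adjusted p of the difference was 0.498, 0.82 and 0.492 for LXLOC_047956, AL021807.1 and LXLOC_047960.

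A coding start lay within 2 kb on the opposite strand at 889 of the loci, of which 46 (5.17%) rose in both lines, against 8.2% of all loci. The 6 named lncRNAs with the largest shared rises included 4 of this kind (NDUFA6-DT, NUP50-DT, ASB16-AS1 and CD27-AS1). The coding starts in question were those of NDUFA6, NUP50, TMUB2 and TAPBPL, in the same order. NDUFA6-DT starts opposite NDUFA6, a subunit of respiratory complex I, and rose from 1.46 and 1.68 to 4.57 and 4.71 FPKM in HepG2 and from 1.14 and 1.11 to 2.30 and 2.44 FPKM in LM3. NUP50-DT starts opposite NUP50, a nuclear pore protein. It rose from 1.04 and 1.78 to 3.09 and 3.11 FPKM in HepG2 and from 0.37 and 0.70 to 2.33 and 2.58 FPKM in LM3. Its difference of 0.59 had a 95% interval of -0.16 to 1.33, so a response more than 2-fold larger in LM3 lay within it.

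ASB16-AS1, antisense to ASB16, rose from 5.72 and 5.71 to 10.77 and 10.63 FPKM in HepG2 and from 5.69 and 6.82 to 12.92 and 13.25 FPKM in LM3. LINC02804, an intergenic lncRNA of chromosome 1, rose from 0.39 and 0.40 to 1.23 and 1.66 FPKM in HepG2 and from 1.56 and 1.81 to 3.39 and 3.55 FPKM in LM3. CD27-AS1, antisense to the gene of the lymphocyte receptor CD27, rose from 1.69 and 0.82 to 4.18 and 3.71 FPKM in HepG2 and from 0.27 and 0.55 to 1.22 and 1.45 FPKM in LM3. No vehicle library overlapped a JQ1 library of its line for these lncRNAs, though the vehicle replicates of CD27-AS1 lay apart from each other.

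The promoters of NUP50-DT and CD27-AS1 are shown as the ones that held CACGTG among the shared rises described above whose start in the deposited tables lay within 50 bp of the RefSeq start. Those of NDUFA6-DT and ASB16-AS1, whose starts were also within 50 bp, held none. The first is chr22:45163732-45164031 and the second chr12:6451468-6451767, both on the minus strand (RefSeq, GRCh38.p14), from 250 bases before to 50 after the start. Capitals mark CACGTG, the letters of an E-box, and CCAAT, searched with TATAAA on both strands.
NUP50-DT: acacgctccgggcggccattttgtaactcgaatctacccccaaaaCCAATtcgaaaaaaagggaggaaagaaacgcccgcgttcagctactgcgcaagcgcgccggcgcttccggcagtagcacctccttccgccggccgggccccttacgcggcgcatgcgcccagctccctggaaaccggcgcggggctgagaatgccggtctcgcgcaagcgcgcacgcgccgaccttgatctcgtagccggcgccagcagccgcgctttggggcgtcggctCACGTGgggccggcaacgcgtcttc
CD27-AS1: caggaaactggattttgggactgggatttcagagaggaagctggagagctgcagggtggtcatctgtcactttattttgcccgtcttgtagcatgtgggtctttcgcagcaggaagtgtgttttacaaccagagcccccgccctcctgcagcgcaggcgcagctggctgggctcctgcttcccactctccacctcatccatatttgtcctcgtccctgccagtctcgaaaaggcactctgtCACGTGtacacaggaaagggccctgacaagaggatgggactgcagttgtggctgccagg
CACGTG was present in 6 of 31 promoters matched for loci that rose in both lines (19.4%), in 5 of 94 for loci that fell in both (5.32%), in 56 of 595 for all tested loci with a match (9.41%) and in 7.43% of all 27305 RefSeq promoters. CCAAT was present in 41.9%, 27.7%, 37.1% and 35.7% and TATAAA in 9.68%, 2.13%, 7.39% and 12.0% of the same sets. The letters are a description of these windows, and no factor's binding was measured. For the counts, promoters were matched by symbol, and a RefSeq start can lie far from that in the deposited tables (455875 bp for MIR100HG). Some windows may therefore not be the promoter of the locus measured.

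The lncRNAs with the largest shared falls lost most of their signal in both lines. LINC00963, an intergenic lncRNA of chromosome 9, fell from 21.17 and 20.11 to 4.98 and 5.45 FPKM in HepG2 and from 35.06 and 36.10 to 6.96 and 6.69 FPKM in LM3, 3.96-fold and 5.21-fold by group means. CPS1-IT1 lies within CPS1, the first enzyme of the urea cycle, on the same strand. It fell from 6.84 and 6.79 to 1.33 and 1.22 FPKM in HepG2 and from 1.34 and 1.41 to 0.41 and 0.26 FPKM in LM3. Reads from CPS1 transcripts cannot be told apart from those of CPS1-IT1.

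FENDRR starts opposite FOXF1, a transcription factor of mesenchymal development, and fell from 8.29 and 9.14 to 2.71 and 2.88 FPKM in HepG2 and from 3.35 and 3.44 to 1.02 and 1.05 FPKM in LM3. Its difference was 0.14, with a 95% interval of -0.13 to 0.41. By group means the falls were 3.12-fold and 3.28-fold, and LXLOC_022308, listed with the same ends, fell by 1.77 and 1.53 on the log2(FPKM + 0.5) scale. NTRAS fell from 2.98 and 2.56 to 0.79 and 0.56 FPKM in HepG2 and from 2.11 and 2.42 to 0.35 and 0.54 FPKM in LM3. Every JQ1 library lay below every vehicle library of its line for these falls.

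PRR7-AS1, which starts opposite PRR7, a membrane adaptor protein, fell from 7.17 and 6.59 to 1.63 and 2.34 FPKM in HepG2 and from 7.32 and 7.40 to 2.02 and 4.19 FPKM in LM3. Its LM3 replicates with JQ1 lay apart, and its LM3 fall was not called in separate fits by line (adjusted p = 0.0641). SBF2-AS1, antisense to SBF2, a phosphatase-like regulator of membrane traffic, fell from 4.80 and 5.82 to 2.13 and 2.02 FPKM in HepG2 and from 9.69 and 8.17 to 2.65 and 2.43 FPKM in LM3. Its promoter, chr11:9758043-9758342 on the plus strand, is shown as that of a shared fall; it was 74.3% G and C and held none of the 3 searched motifs.
SBF2-AS1: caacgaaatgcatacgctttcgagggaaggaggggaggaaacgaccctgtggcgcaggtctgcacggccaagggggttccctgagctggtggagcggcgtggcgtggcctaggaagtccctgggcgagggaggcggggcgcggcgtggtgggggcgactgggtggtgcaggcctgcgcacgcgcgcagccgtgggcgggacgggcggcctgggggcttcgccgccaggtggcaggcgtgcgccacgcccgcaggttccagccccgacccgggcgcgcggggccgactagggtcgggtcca

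**Figure D2:**
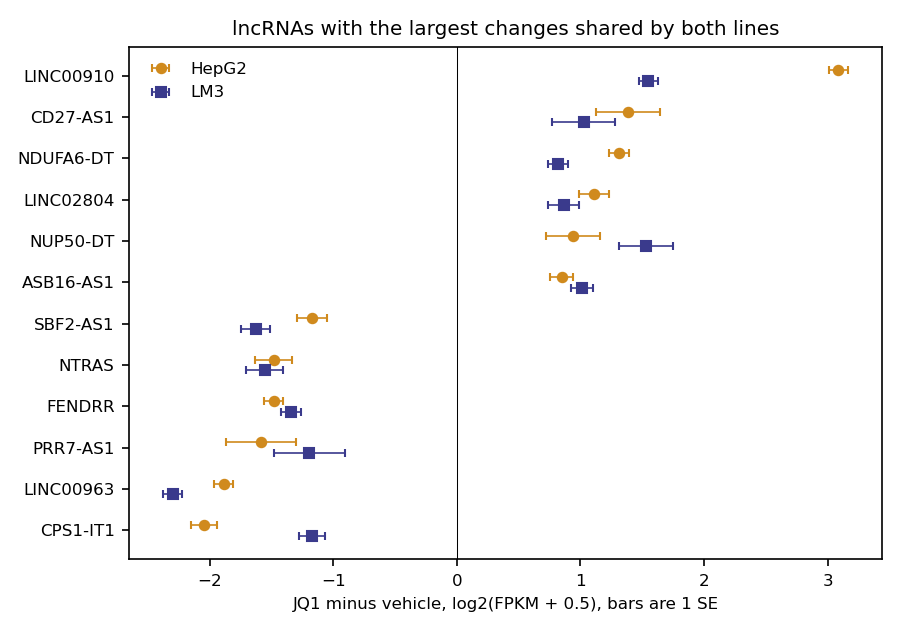
Change with JQ1 (JQ1 minus vehicle, log2(FPKM + 0.5), bars 1 SE from limma) for the 12 named lncRNAs with the largest shared changes; circles are HepG2 and squares LM3, 2 libraries per group. LINC00910 is the lncRNA whose bars lie farthest apart, at 3.09 in HepG2 and 1.55 in LM3.

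The called differences stood in few places, and most were differences in size. The 11 loci lay in 7 places of the genome, 8 of the 11 overlapped another locus on the same strand, and 9 of the 11 were called in the same direction in both lines. At all 11, the 4 pairwise JQ1 minus vehicle differences of a line did not overlap those of the other, which was also the case at 1400 of all 5035 loci (27.8%). The highest adjusted p among them was 0.0439, and the lowest of an uncalled locus 0.0552. Without LM3 JQ1 replicate 2, 3 differences were called, those of LINC00910 and LXLOC_024647 among them, and without any other library the count was 0. It was also 0 with the replicate number as a block (smallest adjusted p 0.139) and without overlapping loci (0.101). At an unadjusted p under 0.05, 604 loci (12.0%) differed.

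The largest difference was at LINC00910, an intergenic lncRNA on chromosome 17 (ENSG00000188825, chr17:43338741-43389199, minus strand). It stood at 5.98 and 5.48 FPKM with vehicle and 51.69 and 53.19 FPKM with JQ1 in HepG2, and at 4.69 and 5.04 FPKM with vehicle and 14.97 and 15.45 FPKM with JQ1 in LM3. The vehicle levels were close, and the JQ1 libraries of HepG2 lay far above those of LM3. By group means the rise was 9.15-fold in HepG2 and 3.13-fold in LM3. The difference was -1.54 ± 0.11 (SE), with a 95% interval of -1.80 to -1.28 (limma, adjusted p = 0.00938).

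Its RefSeq promoter, chr17:43388849-43389148 on the minus strand, is shown because LINC00910 carried this difference. The start in the deposited tables lay 301 bp upstream of the RefSeq start. TATAAA is in capitals, and neither CACGTG nor CCAAT was found.
LINC00910: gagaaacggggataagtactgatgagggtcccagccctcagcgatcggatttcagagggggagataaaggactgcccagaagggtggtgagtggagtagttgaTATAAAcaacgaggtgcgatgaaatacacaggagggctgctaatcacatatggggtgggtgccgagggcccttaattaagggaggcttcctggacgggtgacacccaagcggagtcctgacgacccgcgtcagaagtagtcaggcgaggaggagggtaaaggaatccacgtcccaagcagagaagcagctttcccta

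The difference was also called at 3 neighbours of LINC00910. LXLOC_024647 (chr17:43231705-43235949) stood at 31.74 and 31.45 FPKM and then 179.7 and 192.5 FPKM in HepG2, and at 25.05 and 25.25 FPKM and then 57.88 and 55.95 FPKM in LM3. Its difference was -1.38 (adjusted p = 0.00938). LXLOC_024656 (chr17:43264788-43295344) stood at 79.69 and 83.66 FPKM and then 419.8 and 461.5 FPKM in HepG2, and at 69.45 and 64.42 FPKM and then 150.8 and 148.1 FPKM in LM3. LXLOC_024649, between them, rose 5.66-fold in HepG2 and 2.38-fold in LM3. The differences of LXLOC_024656 and LXLOC_024649 were -1.27 and -1.24 (adjusted p = 0.0187 and 0.0265). At 2 other loci, both within LXLOC_024649 on the same strand, it was not called. LXLOC_024650 rose 3.61-fold in HepG2 and 2.33-fold in LM3, with a difference of -0.61 (adjusted p = 0.601), and LXLOC_024651 rose 2.52-fold and 2.03-fold, with a difference of -0.33 (adjusted p = 0.704).

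All 5 of these loci overlap the coding gene CCDC200 on the same strand, so reads from CCDC200 cannot be told apart from theirs. GENCODE places 14 snRNA genes in this stretch, chr17:43231705-43389199, among them RNU2-1, a gene of the U2 spliceosomal RNA, while the other annotated genes there are CCDC200, LINC00910 and AC109326.1. LXLOC_024665, which overlaps LINC00910, rose by 3.81 and 3.03 on the log2(FPKM + 0.5) scale, and its difference of -0.77 was not called (adjusted p = 0.129). On the opposite strand, LXLOC_023196 rose by 2.55 and 1.54, with a difference of -1.01 (adjusted p = 0.2). The strand setting of the counting is not given in the sources used here, so sense and antisense reads at this place cannot be told apart.

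As deposited, the only called difference in which LM3 had the higher change was LXLOC_013055 (chr12:37237525-37240154, minus strand), which overlaps no coding gene. It rose from 1.76 and 1.92 to 7.29 and 7.05 FPKM in HepG2 and from 4.52 and 4.15 to 31.53 and 33.15 FPKM in LM3. The rise was 3.90-fold in HepG2 and 7.46-fold in LM3, and the difference was 1.05 with a 95% interval of 0.78 to 1.32 (adjusted p = 0.028). With a pseudocount of 0.1 FPKM in place of 0.5 the difference was 0.965 and not called (adjusted p = 0.0777).

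Larger falls in LM3 made up the other differences in size. LXLOC_019865 (chr15:98883571-98893535, minus strand) lies antisense to IGF1R, the receptor of insulin-like growth factor I. It fell from 1.30 and 1.28 to 0.18 and 0.16 FPKM in HepG2 and from 4.67 and 4.68 to 0.32 and 0.31 FPKM in LM3, 7.59-fold and 14.8-fold by group means. The LM3 vehicle libraries were the high ones, and the JQ1 libraries of both lines were low. The difference was -1.25 (adjusted p = 0.0145). LXLOC_019865 overlaps another locus on the same strand, and with the strand setting unknown, reads from IGF1R may be counted in it.

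PAX8-AS1 (ENSG00000189223, chr2:113211421-113276581, plus strand) lies antisense to PAX8, a transcription factor of thyroid and kidney development. It fell from 0.80 and 0.89 to 0.36 and 0.36 FPKM in HepG2 and from 5.39 and 4.91 to 0.96 and 0.78 FPKM in LM3, 2.35-fold and 5.92-fold. Its difference was -1.40, with a 95% interval of -1.74 to -1.07 (adjusted p = 0.0234). LXLOC_030447, which overlaps it on the same strand and may share its reads, fell from 0.80 and 0.80 to 0.19 and 0.22 FPKM in HepG2 and from 4.0 and 3.9 to 0.49 and 0.46 FPKM in LM3, a difference of -1.31 (adjusted p = 0.0145). With the strand setting unknown, reads from PAX8 may be counted at both loci.

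LXLOC_049444 (chr7:25047050-25063726, plus strand) fell from 0.62 and 0.63 to 0.40 and 0.40 FPKM in HepG2 and from 1.93 and 1.99 to 0.51 and 0.45 FPKM in LM3. Its difference was -1.01 (adjusted p = 0.0439). Its neighbour upstream, LXLOC_049443, had changes of -0.12 in HepG2 and -0.69 in LM3, of which the latter was called, and its difference of -0.56 was not (adjusted p = 0.234). With a pseudocount of 0.1 FPKM the differences of LXLOC_019865, LXLOC_030447, PAX8-AS1 and LXLOC_049444 were -1.16, -1.25, -1.40 and -1.29, and none was called (adjusted p = 0.081 for each).

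A response in LM3 and not in HepG2, with the difference called, was found at 2 loci. RPL26L1-AS1 (ENSG00000204758, chr5:172954786-172959392, minus strand) starts opposite RPL26L1, which encodes a ribosomal protein closely related to RPL26. It stood at 1.99 and 1.99 FPKM with vehicle and 2.18 and 2.33 FPKM with JQ1 in HepG2, and fell from 3.46 and 3.73 to 1.75 and 1.79 FPKM in LM3. The HepG2 value with JQ1 was the higher in both libraries but was not called (adjusted p = 0.213), and the 2.03-fold fall in LM3 was (adjusted p = 0.000689). The difference was -0.996 with a 95% interval of -1.25 to -0.74 (adjusted p = 0.028). LXLOC_046012, which overlaps it on the same strand, fell in both lines, by 0.33 and 0.92 on the log2(FPKM + 0.5) scale, so the absence of a fall in HepG2 was not seen in the overlapping locus. Its difference of -0.59 was not called (adjusted p = 0.211). With the strand setting unknown, reads from RPL26L1 may be counted at RPL26L1-AS1.

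The RefSeq promoter of RPL26L1-AS1, chr5:172959319-172959618 on the minus strand, is shown as that of the only lncRNA with a symbol in this class. The start in the deposited tables lay 24 bp from the RefSeq start. It was 60.7% G and C and held none of the 3 motifs.
RPL26L1-AS1: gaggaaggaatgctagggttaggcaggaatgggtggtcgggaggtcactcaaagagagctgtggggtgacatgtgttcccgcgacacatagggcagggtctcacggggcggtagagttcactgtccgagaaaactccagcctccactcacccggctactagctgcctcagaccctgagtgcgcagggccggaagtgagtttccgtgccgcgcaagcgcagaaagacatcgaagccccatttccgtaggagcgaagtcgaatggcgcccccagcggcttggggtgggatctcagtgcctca

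LXLOC_034140 (chr20:53265132-53323540, plus strand) lies within TSHZ2, a zinc-finger transcription factor, on the same strand. It stood at 1.06 and 0.95 FPKM with vehicle and 0.98 and 1.01 FPKM with JQ1 in HepG2, where the groups overlapped, and fell from 1.88 and 2.0 to 0.57 and 0.51 FPKM in LM3. The fall was 3.59-fold, and the difference was -1.22 with a 95% interval of -1.51 to -0.94 (adjusted p = 0.0234). LXLOC_034141, also within TSHZ2, had changes of 0.31 and -1.06, of which the latter was called, with an uncalled difference of -1.37 (adjusted p = 0.202). Reads of TSHZ2 transcripts cannot be told apart from those of either locus.

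**Figure D3:**
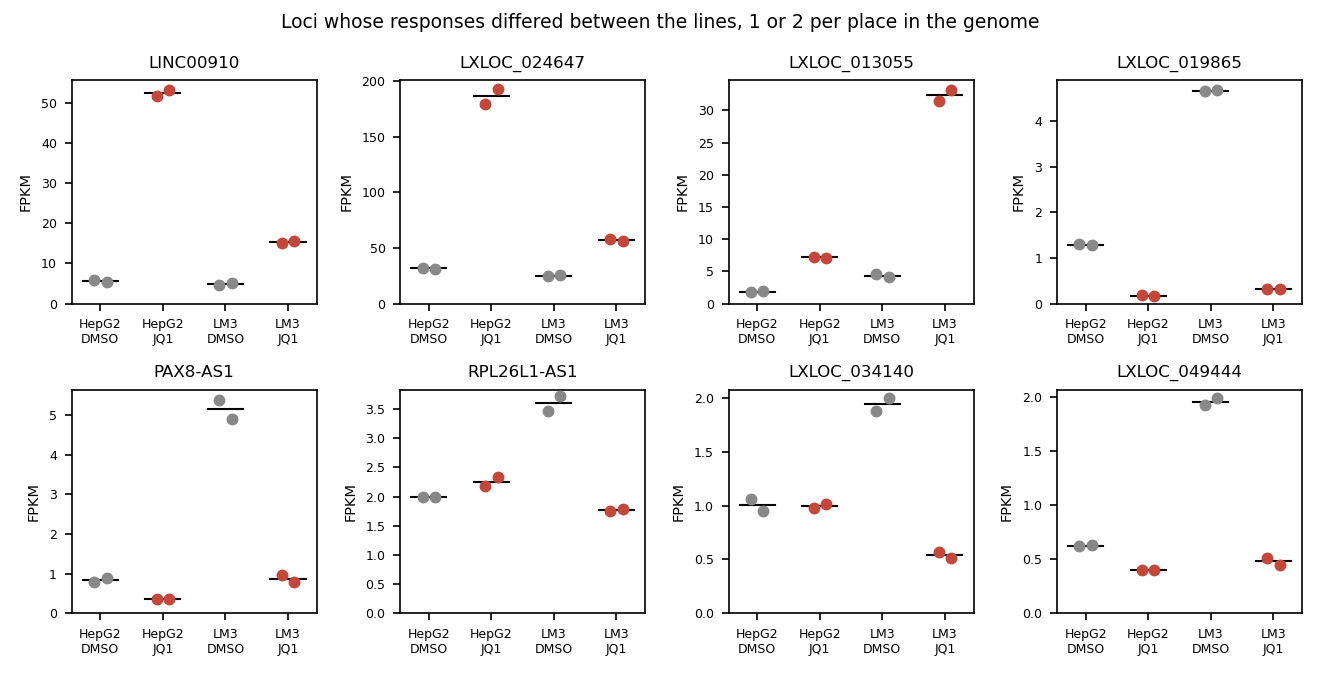
FPKM of each library (vertical axis, from 0) for 8 of the 11 loci whose difference was called, by line and treatment; points are libraries (2 per group) and bars their means. LINC00910, LXLOC_024647 and LXLOC_013055 rose in both lines by unequal amounts, and LXLOC_034140 and RPL26L1-AS1 fell in LM3 alone.

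The larger response was in the line with the higher vehicle level at all 11 called loci. Both measures use the same vehicle libraries, and a level near the pseudocount limits how far a locus can fall on the log2(FPKM + 0.5) scale, so they are not independent. The levels of the lines come from tables that may have been normalized separately. Of 310 loci with a vehicle level at least 2-fold higher in LM3, 103 (33.2%) had an unadjusted p under 0.05 for the difference, 83 of them with the lower change in LM3. The count was 31 of 157 (19.7%) where HepG2 was at least 2-fold higher and 470 of 4568 (10.3%) elsewhere. With a pseudocount of 0.1 FPKM these shares were 32.9%, 19.1% and 9.81%.

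The 5 loci called in opposite directions changed by less than 2-fold in each line, and no difference among them was called. LXLOC_007487 (chr10:95732976-96090239) stood at 3.33 and 3.47 FPKM with vehicle and 2.52 and 2.44 FPKM with JQ1 in HepG2, and at 2.46 and 2.02 FPKM and then 3.68 and 3.57 FPKM in LM3. AL645608.7 stood at 0.78 and 0.95 FPKM and then 0.53 and 0.47 FPKM in HepG2, and at 0.78 and 0.98 FPKM and then 1.46 and 1.45 FPKM in LM3. Both were lower with JQ1 in every HepG2 library and higher in every LM3 library. Their differences were 0.98 and 0.95 (adjusted p = 0.0689 and 0.108).

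The other 3 went the opposite way. LXLOC_059852 on the X chromosome stood at 5.12 and 4.93 FPKM and then 7.10 and 6.72 FPKM in HepG2, and at 1.74 and 2.02 FPKM and then 1.27 and 1.35 FPKM in LM3. LXLOC_026614 stood at 0.63 and 0.73 FPKM and then 1.17 and 1.12 FPKM in HepG2, and at 3.59 and 4.18 FPKM and then 3.0 and 2.36 FPKM in LM3. LXLOC_010326, antisense to FRMD8, stood at 0.73 and 0.74 FPKM and then 1.05 and 1.03 FPKM in HepG2, and at 0.84 and 0.87 FPKM and then 0.53 and 0.60 FPKM in LM3. It lies at chr11:65410840-65422807 on the minus strand, and its start overlaps that of NEAT1 (chr11:65422774-65445540, plus strand). NEAT1 had group means of 92 to 182.9 FPKM, and with the strand setting unknown its reads may be counted here. The differences of LXLOC_059852, LXLOC_026614 and LXLOC_010326 were -0.82, -0.95 and -0.67 (adjusted p = 0.0898, 0.145 and 0.132). In separate fits by line, 1 locus was called in opposite directions instead of 5, and 2 were with loci of at least 1 FPKM.

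**Figure D4:**
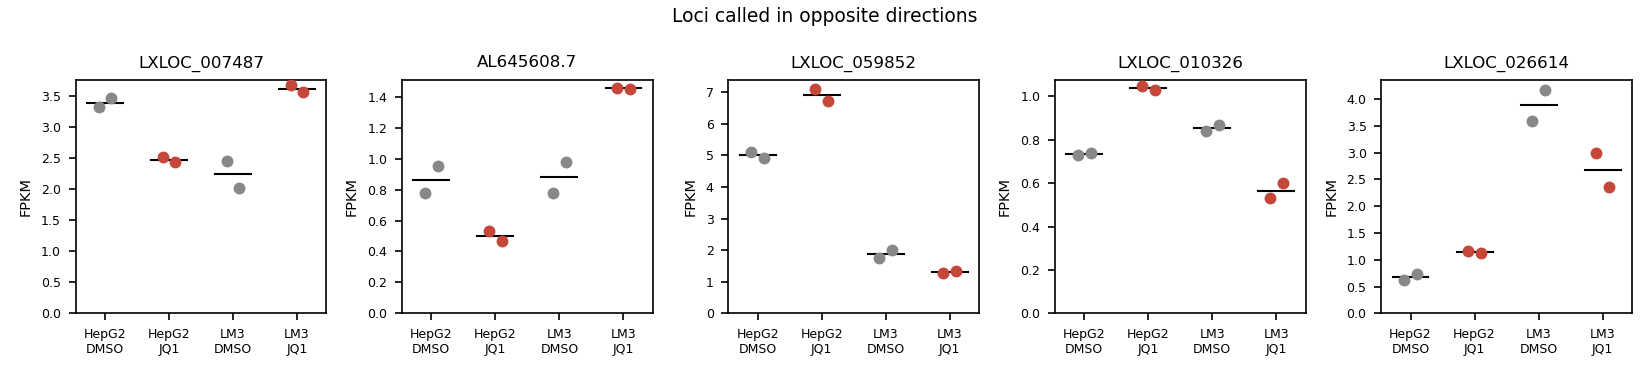
FPKM of each library (vertical axis, from 0) for the 5 loci called in opposite directions, by line and treatment; points are libraries (2 per group) and bars their means. In each panel the JQ1 libraries lie on opposite sides of the vehicle libraries in the lines, and each change is smaller than 2-fold.

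Among lncRNAs with a symbol whose difference was not called, the 17 with the smallest unadjusted p in either direction were chosen after their values were seen. Of these, 5 fell and 1, NDUFA6-DT, rose in both lines, and 11 were called in 1 line only. CASC19, a lncRNA of the 8q24 region upstream of MYC, stood at 36.46 and 35.12 FPKM and then 13.66 and 16.12 FPKM in HepG2, and at 321.0 and 340.4 FPKM and then 248.0 and 257.9 FPKM in LM3. It fell 2.40-fold in HepG2 and 1.31-fold in LM3, and its difference of 0.86 was not called as deposited (adjusted p = 0.0973) but was after centring (0.0457) and after rescaling (0.041). Its level was far higher in LM3, the line with the smaller fall, unlike at the 11 called loci.

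SNHG26, a snoRNA host, fell from 12.93 and 12.14 to 3.30 and 4.13 FPKM in HepG2 and from 25.51 and 26.36 to 14.95 and 13.88 FPKM in LM3, 3.37-fold and 1.80-fold. FOXF2-DT, which is named after FOXF2, a mesenchymal transcription factor, fell from 2.54 and 2.92 to 0.85 and 0.85 FPKM in HepG2 and from 2.50 and 2.70 to 1.67 and 1.73 FPKM in LM3. Their differences of 0.81 and 0.76 were not called (adjusted p = 0.151 and 0.108). The vehicle levels of FOXF2-DT were nearly the same in both lines.

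CEACAM16-AS1 fell more in LM3, from 3.10 and 3.36 to 0.74 and 0.84 FPKM, than in HepG2, from 1.12 and 1.12 to 0.54 and 0.68 FPKM. Its difference of -0.98 (adjusted p = 0.0689) was called at a pseudocount of 1 FPKM (adjusted p = 0.0364) and with no filter (0.0451). CPS1-IT1 had a difference of 0.87 (adjusted p = 0.118), which was called at a pseudocount of 1 FPKM (adjusted p = 0.0249).

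Of the 11 called in 1 line, 6 were called in HepG2, 2 as rises and 4 as falls, and 5 in LM3, 2 as rises and 3 as falls. DHRS4-AS1, antisense to the retinol dehydrogenase gene DHRS4, fell from 9.20 and 9.09 to 4.49 and 4.31 FPKM in HepG2 and stood at 0.90 and 1.00 and then 0.90 and 0.66 FPKM in LM3, a difference of 0.79 (adjusted p = 0.151). GSEC stood at 3.08 and 3.07 and then 2.01 and 2.22 FPKM in HepG2, a called fall, and at 3.09 and 3.27 and then 3.56 and 3.79 FPKM in LM3. NUP153-AS1, antisense to the nuclear pore gene NUP153, stood at 2.40 and 2.38 and then 2.29 and 2.10 FPKM in HepG2 and rose from 0.50 and 0.38 to 0.86 and 0.97 FPKM in LM3. IGFL2-AS1 rose from 38.22 and 34.19 to 57.42 and 54.58 FPKM in HepG2 and stood at 10.46 and 10.07 and then 10.31 and 11.26 FPKM in LM3. The differences of GSEC, NUP153-AS1 and IGFL2-AS1 were 0.63, 0.69 and -0.56 (adjusted p = 0.132, 0.173 and 0.198).

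The widest of these differences was that of NUDT19-DT, which stood at 0.82 and 0.99 and then 0.65 and 0.93 FPKM in HepG2 and rose from 0.50 and 0.74 to 1.55 and 1.95 FPKM in LM3, a difference of 1.14 (adjusted p = 0.192). ARHGAP27P1-BPTFP1-KPNA2P3 rose from 0.67 and 0.77 to 1.49 and 1.36 FPKM in HepG2 and stood at 1.12 and 0.89 and then 0.92 and 0.80 FPKM in LM3. Falls called in LM3 were those of LINC02732, ST7-OT4 and EIF3J-DT, with changes of -0.73, -0.88 and -0.56 there and of 0.13, -0.25 and -0.07 in HepG2. The other falls called in HepG2 were those of DNAH17-AS1, at -1.29 against -0.45 in LM3, and GCC2-AS1, at -0.66 against 0.16.

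None of the 14 lists of lncRNAs held a called difference, against 11 of all 5035 loci (0.218%). At that share, lists of this size could hold none without differing from the other loci. The lists had 2 to 30 tested members, were chosen with earlier results of these data known, and were not tested against each other. Their counts stand against 8.2% shared rises, 11% shared falls and 12.0% differences at an unadjusted p under 0.05 over all loci. Super-enhancer-associated lncRNAs had the largest share of members called in the same direction in both lines: 1 of 14 tested rose and 9 fell, with median changes of -0.59 in HepG2 and -0.61 in LM3, against 0.01 and -0.07 over all loci. PVT1, beside MYC, averaged 91.08 and 56.55 FPKM with vehicle and JQ1 in HepG2 and 82.97 and 50.64 FPKM in LM3, with a difference of -0.02. The member that rose was NEAT1, the scaffold of paraspeckles, from 95.2 and 88.8 to 169.6 and 194.1 FPKM in HepG2 and from 114.9 and 118.7 to 185.8 and 180.0 FPKM in LM3.

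Other super-enhancer members fell by unequal amounts without a called difference. MIR100HG, host of miR-100, fell from 31.26 and 28.62 to 15.39 and 16.65 FPKM in HepG2 and from 38.04 and 39.84 to 15.17 and 17.04 FPKM in LM3, a difference of -0.37. TM4SF1-AS1 had changes of -0.68 and -1.16, and LINC00963 of -1.89 and -2.30. At an unadjusted p under 0.05, 7 of the 14 members differed, 2 with the higher and 5 with the lower change in LM3. The median difference of the list was -0.14, against -0.07 over all loci.

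SnoRNA host transcripts, whose introns are processed to small nucleolar RNAs, were called at 9 of 28 tested members in HepG2 (32.1%, against 27.1% of all loci) and at 6 in LM3 (21.4%, against 30.0%), and the difference in these counts was not tested. In HepG2 1 rose and 8 fell, and in LM3 3 rose and 3 fell. SNHG15 fell from 34.01 and 36.49 to 22.79 and 23.28 FPKM in HepG2 and stood at 32.50 and 30.35 and then 27.56 and 27.83 FPKM in LM3. SNHG7 stood at 39.17 and 43.65 and then 41.65 and 42.27 FPKM in HepG2 and rose from 59.97 and 58.72 to 88.52 and 80.78 FPKM in LM3. Their differences of 0.42 and 0.49 were not called (adjusted p = 0.223 and 0.224). At an unadjusted p under 0.05, 5 members differed, all 5 with the higher change in LM3. The median difference of the list was 0.17, and 0.24, 0.28 and 0.29 after centring, quantile normalization and rescaling, while that over all loci was -0.07, -0.0042, 0.00048 and 0.02. GAS5, an abundant host, stood at 313.2 and 319.1 and then 289.4 and 293.8 FPKM in HepG2 and at 200.1 and 201.9 and then 222.8 and 204.6 FPKM in LM3, and was called in neither.

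Of 30 lncRNAs reported to promote growth of liver cancer, 3 rose (10%) and 8 fell (26.7%) in both lines, and 6 (20%) differed at an unadjusted p under 0.05, 2 with the higher and 4 with the lower change in LM3. LUCAT1 fell from 11.87 and 12.93 to 7.54 and 7.35 FPKM in HepG2 and from 2.29 and 2.36 to 0.80 and 1.00 FPKM in LM3. UCA1 stood at 1.33 and 1.44 and then 1.19 and 1.35 FPKM in HepG2 and fell from 3.31 and 3.29 to 2.05 and 2.23 FPKM in LM3, with an uncalled difference of -0.43 (adjusted p = 0.254). The median difference was -0.02 as deposited and 0.05, 0.11 and 0.11 after centring, quantile normalization and rescaling, so its sign depended on the scaling. H19 did not pass in either line, with changes of 0.02 and 0.00084 and a 95% interval of the difference of -0.36 to 0.33.

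Of 17 microRNA host transcripts, 2 rose (11.8%) and 5 fell (29.4%) in both lines and 3 (17.65%) differed at an unadjusted p under 0.05. Over all loci these shares were 8.2%, 11% and 12.0%. MIR1915HG fell from 3.30 and 3.35 to 1.57 and 1.59 FPKM in HepG2 and from 3.13 and 3.20 to 2.29 and 2.10 FPKM in LM3. MIR34AHG, host of the p53-induced miR-34a, stood at 2.05 and 2.11 and then 2.08 and 1.62 FPKM in HepG2 and fell from 1.72 and 1.62 to 0.82 and 0.58 FPKM in LM3. Their differences of 0.43 and -0.72 were not called (adjusted p = 0.222 and 0.234). TP53TG1, another p53-responsive lncRNA, stood at 2.02 and 2.43 and then 2.14 and 2.24 FPKM in HepG2 and rose from 1.26 and 1.17 to 2.0 and 1.89 FPKM in LM3, so these p53-responsive lncRNAs did not move together in LM3.

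In the HOX clusters 2 of 9 tested lncRNAs fell in both lines (22.2%, against 11% of all loci). None rose in either line, against rises at 12.9% of all loci in HepG2 and 11.9% in LM3. With 9 members this does not show a lack of rises. HOXA10-AS fell from 1.42 and 1.31 to 0.63 and 0.58 FPKM in HepG2 and from 1.81 and 1.83 to 0.63 and 0.44 FPKM in LM3. Of 16 nuclear and housekeeping lncRNAs, 2 rose (12.5%) and 1 fell (6.25%) in both lines. Of 5 imprinted lncRNAs none was called in either line, against 27.1% of all loci in HepG2 and 30.0% in LM3. These 5 are too few to tell the list from the other loci. FIRRE, a nuclear organizing lncRNA of the X chromosome, fell from 19.57 and 21.06 to 14.09 and 14.13 FPKM in HepG2 and stood at 20.51 and 21.76 and then 18.48 and 18.99 FPKM in LM3, an uncalled difference of 0.34 (adjusted p = 0.28).

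The smaller lists held few tested members, and their counts stand against 8.2% shared rises and 11% shared falls over all loci. Of 6 tumour-suppressive lncRNAs 1 rose and 2 fell in both lines, of 7 p53-responsive 2 rose and 1 fell, of 6 stress and NF-kB 1 rose and 2 fell, and of 6 hypoxia-linked 1 rose and 1 fell. Of 4 in 8q24 2 fell in both. Of 3 liver-lineage lncRNAs 1 fell in both, CPS1-IT1, and of 2 of other cell types 1 did, FENDRR.

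**Figure D5:**
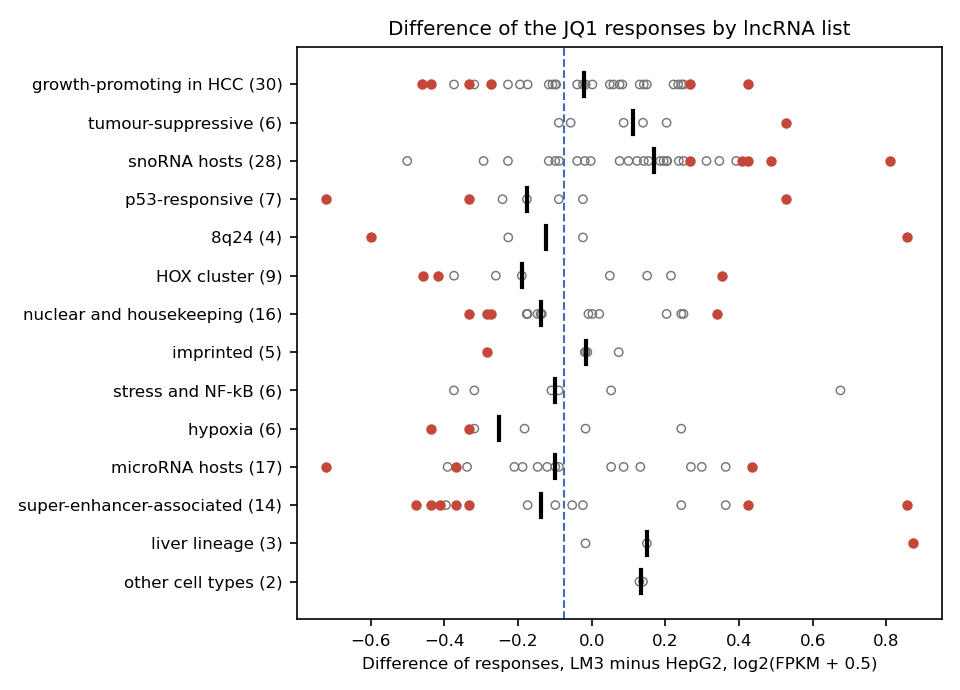
Difference of the responses (LM3 minus HepG2, log2(FPKM + 0.5), horizontal axis) of each tested lncRNA by list, with the number tested; filled points have an unadjusted p under 0.05, bars are list medians and the dashed line is the median of all 5035 loci at -0.07. The snoRNA hosts have their median to the right of the dashed line at 0.17, and no point is a called difference.

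Among antisense lncRNAs, shared falls outnumbered shared rises. Of 299 loci with an antisense symbol, 50 fell (16.7%) and 9 rose (3.01%) in both lines, against 11% and 8.2% of all loci. Of 145 divergent transcripts (-DT) 17 fell and 7 rose, of 169 LINC transcripts 26 fell and 16 rose, and of 3384 loci named by the authors alone 361 fell (10.7%) and 326 rose (9.63%). On chromosomes 6 and 22 the shared rises were 16.4% and 16.8% of tested loci, and on chromosome 18 the shared falls were 19.3%. Among loci with the lowest mean, 0.506 to 0.893 FPKM over all libraries, 14.5% were called in the same direction in both lines, against 22.6% of those at 2.945 FPKM or more. The standard error of the difference was larger in the former, with a median of 0.2 against 0.15. These shares are descriptions, and none was tested against the rest.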

How the data were processed

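LncRNA abundance was measured in 8 libraries of ribosomal-RNA-depleted total RNA, sequenced from both ends, per the labels' protocols. The authors deposited FPKM in 1 table for each line, rounded to 2 decimals, per the file headers. The submitters' processing notes name Bowtie 0.12.2, hg19 and mm8 without a role. Coordinates are given on GRCh38, because of 8453 Ensembl IDs listed in GENCODE release 29 100% had its chromosome, 83.9% its start and 84.3% its end. No source used here gives the counting tool, the strand setting or how the LXLOC loci were defined. Where a locus lies antisense to a coding gene, reads of that gene may therefore be counted in it.

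Of 23161 listed loci, 7692 held dashes and were left out. Library totals were 29369 to 35742 summed FPKM; read depth is unknown, since low values did not resolve into whole reads, so no count test was run. Values were tested as log2(FPKM + 0.5) in 1 limma 3.58.1 fit (R 4.3.3, trend and robust) over the 8 libraries with 1 mean for each group, two-sided, with Benjamini-Hochberg adjustment over 5035 loci and a threshold of 0.05. A scale difference between tables cancels within a line only where FPKM is well above the pseudocount, and the filter depends on it too. Fold changes on this scale are understated for low loci; folds by group means are of FPKM. The fit was tested on simulated data. Tables were made with pandas 2.3.3 and NumPy 2.4.6 in Python 3.11.15, and plots with matplotlib 3.10.9.

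The loci and lists were chosen with earlier results of these data known. Named were symbols not based on clones, with at least 1 FPKM in the highest group: up to 8 called differences in each direction, the 6 largest shared changes in each direction, 2 author-named loci in each direction, and up to 3 members per list. All other called differences, the loci called in opposite directions, the 10 smallest p of the difference in each direction, the 5 largest shared rises, the neighbours, LXLOC_022308, PVT1 and TM4SF1-AS1 were chosen after their values were seen. Alternatives were other pseudocounts, filters, scalings, a replicate block, separate fits, omission of overlapping loci and of each library.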

Additional observations from a re-analysis of the deposited data

Results flagged for a closer look

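The responses of the lines differed, by the test of the difference itself, at 11 loci. On the log2(FPKM + 0.5) scale, the difference (LM3 minus HepG2) was -1.54 for LINC00910, -1.38 for LXLOC_024647, -1.27 for LXLOC_024656 and -1.24 for LXLOC_024649. These loci lie in the same stretch of chromosome 17 and rose more in HepG2. Other loci of that stretch rose in both lines without a called difference. The difference was -1.40 for PAX8-AS1, -1.31 for LXLOC_030447, -1.25 for LXLOC_019865 and -1.01 for LXLOC_049444, which fell more in LM3. It was -1.22 for LXLOC_034140 and -0.996 for RPL26L1-AS1, called in LM3 only. It was 1.05 for LXLOC_013055, which rose more in LM3. Over the settings other than the omission of a library, the difference of LINC00910 ranged from -1.55 to -1.39, that of PAX8-AS1 from -1.40 to -1.28, that of RPL26L1-AS1 from -1.15 to -0.85 and that of LXLOC_013055 from 0.96 to 1.17.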

How the results depend on the processing

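The 11 differences became 20 with libraries centred on medians, 16 after rescaling without ribosomal and mitochondrial loci, 7 with a filter at 1 FPKM, 94 with no filter, 7 at a pseudocount of 0.1 FPKM, 19 at 1 FPKM and 0 without overlapping loci. Loci specific to a line, 2 as reported, became 6 after centring, 75 with no filter, 6 at a pseudocount of 1 FPKM, 0 without overlapping loci and 4 when every call needed a 2-fold change. That last rule left 112 shared, 0 opposite and 191 undecided loci (called in 1 line, difference not called). With a filter at 1 FPKM, 848 loci were called in HepG2, 969 in LM3, 633 as shared, 2 as opposite and 545 as undecided, among fewer loci tested (2803). With no filter 1680 were undecided. Opposite loci numbered 3 after quantile normalization and 1 in separate fits by line.

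The replicate numbers recur between groups, but no label says that they pair libraries, and same-numbered deviations correlated at -0.0253 in HepG2 and 0.152 in LM3. With the replicate number as a block, 0 differences, 0 line-specific and 3 opposite loci were called, 1011 loci in HepG2, 1178 in LM3 and 724 as shared.

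Leaving out 1 library at a time, with the lone library assumed to vary like the other groups, gave 0 to 3 differences, 749 to 1369 HepG2 calls, 828 to 1365 LM3 calls, 618 to 825 shared, 0 to 6 opposite, 0 line-specific and 744 to 936 undecided loci. Without LM3 vehicle replicate 2, 828 loci were called in LM3, and without HepG2 JQ1 replicate 2, 749 in HepG2.

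Signs turned only among uncalled differences, from -0.36 to 0.39 as reported. FENDRR was -0.017 at a pseudocount of 0.1 FPKM. NTRAS was 0.0152 after quantile normalization, 0.0102 after rescaling and -0.219 to 0.0722 without a library. SNHG14 was 0.052 after centring, 0.0896 after quantile normalization, 0.104 after rescaling and -0.089 to 0.0519 without a library. H19 was 0.054 after centring, 0.109 after rescaling and -0.101 to 0.0675 without a library. CD27-AS1, -0.36 as reported, was 0.00705 without HepG2 vehicle replicate 2 (-0.723 the lowest), and PRR7-AS1, 0.39 as reported, was -0.057 without LM3 JQ1 replicate 2 (0.839 the highest). Without a library, LINC00926 ranged from -0.072 to 0.331 and MEG8 from -0.122 to 0.269. The causes were not tested. Depth, unknown here, and 2 libraries per group limit which differences could be called.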
